A study of Caenorhabditis elegans with 12 samples.

Results

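Cuticle collagens of the col class are short collagens whose gene symbol is col- followed by a number, and their transcripts were followed across 4 Caenorhabditis elegans strains at the L4 stage, the last larval stage. The class was taken from the platform annotation as every gene of that name with a probe set of its own (a probe set is the group of array probes that reports 1 transcript, and "its own" means that only 1 symbol is annotated to it). The genes col-19, an adult-stage collagen, col-81, col-129, col-139, col-158 and col-101 were set aside by name. Of 128 col genes with such a probe set, 122 remained after these 6 were set aside. A gene was kept when a probe set had a log2 value of at least 4 on 3 or more of the 12 arrays, which 21 of the 122 did not reach. All the others were followed. Where several probe sets of a gene passed, the one with the highest mean was read. The whole table held 10365 genes and 13396 probe sets that passed the same filter.

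The cuticle is the worm's outer coat, an extracellular matrix made largely of collagens that the epidermis secretes beneath the old coat before each moult. Cuticle collagens are built around Gly-X-Y repeats, which wind into triple helices after prolyl hydroxylation in the endoplasmic reticulum and are then trimmed by proteases and crosslinked outside the cell. Different collagen genes are switched on at different larval stages and at different times within a moulting cycle, so their transcripts are widely used as stage markers. Single col genes often have no visible loss-of-function phenotype, unlike the body-shape collagens of the dpy, rol, sqt, bli and lon classes.

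RNA came from whole animals in pools of 3000 L4 worms, 3 pools and 3 arrays per strain. The strain labelled crh-1 null carries crh-1 (nn3315), a mutation of the gene for the transcription factor CREB. The strain labelled tax-6 null, RB1667, carries tax-6(ok2065), a mutation of the gene for the catalytic subunit of calcineurin, a calcium-dependent phosphatase. The strain labelled aak-2 o/e, AGD383, is N2 with the transgene uthIs202, in which the aak-2c promoter drives residues 1 to 321 of AAK-2 joined to Tomato and the unc-54 3' untranslated region, with rol6 as marker. AAK-2 is a catalytic subunit of AMPK, a kinase that senses cellular energy. WT was N2. The source field of the aak-2 o/e samples calls them aak-2 null, whereas title and strain give the overexpressing transgene, which was followed here. The marker rol6 is itself a cuticle collagen gene: the rol-6 probe set had 12.70, 13.10 and 12.99 on aak-2 o/e arrays, against 13.16, 13.27 and 13.23 on WT arrays, and this difference did not pass the test (adjusted p = 0.115). Each altered strain is 1 line, and the harvest times, adjusted per strain, were not given by the labels. Strain and progress through the L4 stage cannot be told apart. In whole animals fewer cells of a type and less RNA per cell cannot be told apart either.

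Values are the deposited log2 values. They had a common floor, with 29.8% of all values within 0.1 of the lowest, 2.11, and the array medians lay between 5.32 and 5.45. Replicates of a strain correlated at 0.990 to 0.998 over all probe sets, and tax-6 null replicate 1 stood apart with 0.990 and 0.992 against its fellow replicates. The crh-1 probe set that was detected, an _s set, was higher in crh-1 null (8.61, 8.43 and 8.81) than in WT (7.06, 7.18 and 7.24), both aak-2 probe sets were no higher in aak-2 o/e than in WT, and the tax-6 probe set lay below 4 on all arrays but 1. Whether these probes lie inside the deleted or transgenic stretches was not known, so they check no label and the strain names are those of the labels. All tests are limma's moderated tests over 12 arrays with Benjamini-Hochberg adjustment over all 13396 probe sets, and a gene is called when its adjusted p is under 0.05. Changes are log2 differences ± SE, from 3 arrays against 3.

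Of the genes that passed, 92 had log2 values of at least 4 on all 12 arrays. The other 9 were col-33, col-60, col-74, col-120, col-123, col-131, col-132, col-143 and col-164. Among these, col-123 reached 4 on only the 3 tax-6 null arrays, and col-143 on these and 1 crh-1 null array, so both entered through the strain in which they were high. Gene col-164 also passed on 4 arrays. The 21 genes that did not pass had no value above 4.6, the highest being col-44 in tax-6 null. Just outside the filter, col-44 reached 4 on 2 arrays and col-186 and col-52 on 1 each. A value of at least 4 does not by itself show that a transcript was detected. Some genes gave 1 repeated value above 4: col-8 read 8.58 on all 3 WT arrays and col-35 read 4.38 on all 3 crh-1 null arrays. Transcripts of col-38, col-49 and col-63, known as collagens of the L4 stage, had WT means of 15.04 ± 0.04, 13.68 ± 0.06 and 14.01 ± 0.13 (SD, n = 3 each). These WT values do not check the stage label of the other strains.

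The 4 strains differed in nearly the whole class. The moderated F test over the 4 strains called 94 col genes, 93.1% of those that passed the filter, where 65.1% of all genes were called. Among the 92 genes at 4 or above on every array it called 87. For this limit, here and below, the share over all genes was not computed. The range between the highest and lowest strain mean had a median of 2.27 on the log2 scale over the col genes and 0.69 over all genes, and it reached 3 or more in 30 col genes, 29.7% of them against 5.62% of all genes. The median log2 value over these genes was 8.75 to 9.20 on the crh-1 null arrays, 10.6 to 11.1 on the tax-6 null arrays, 10.5 to 10.6 on the aak-2 o/e arrays and 8.70 to 9.73 on the WT arrays. The 7 genes not called were col-9, col-43, col-53, col-132, col-148, col-164 and col-165. Where 1 strain stood at an edge, past the next strain in the direct test, it was most often crh-1 null at the bottom or tax-6 null at the top. The crh-1 null strain was lowest and below the next strain in 31 col genes (30.7%, with 4.12% of all genes as background). The tax-6 null strain was highest and above the next strain in 30 (29.7%, background 9.56%). These include col-123 and col-143, which entered through the tax-6 null arrays, so for them this is a description only. WT was lowest and below the next strain in 20 (19.8%, background 0.888%). By contrast, aak-2 o/e was highest and above the next strain in 5 (4.95%, background 10.9%), crh-1 null in 6 (5.94%, background 3.9%) and WT in 3 (2.97%, background 2.76%). At the low edge, tax-6 null stood below the next strain in 1 gene (background 9.55%) and aak-2 o/e in 2 (background 8.22%).

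**Figure D1:**
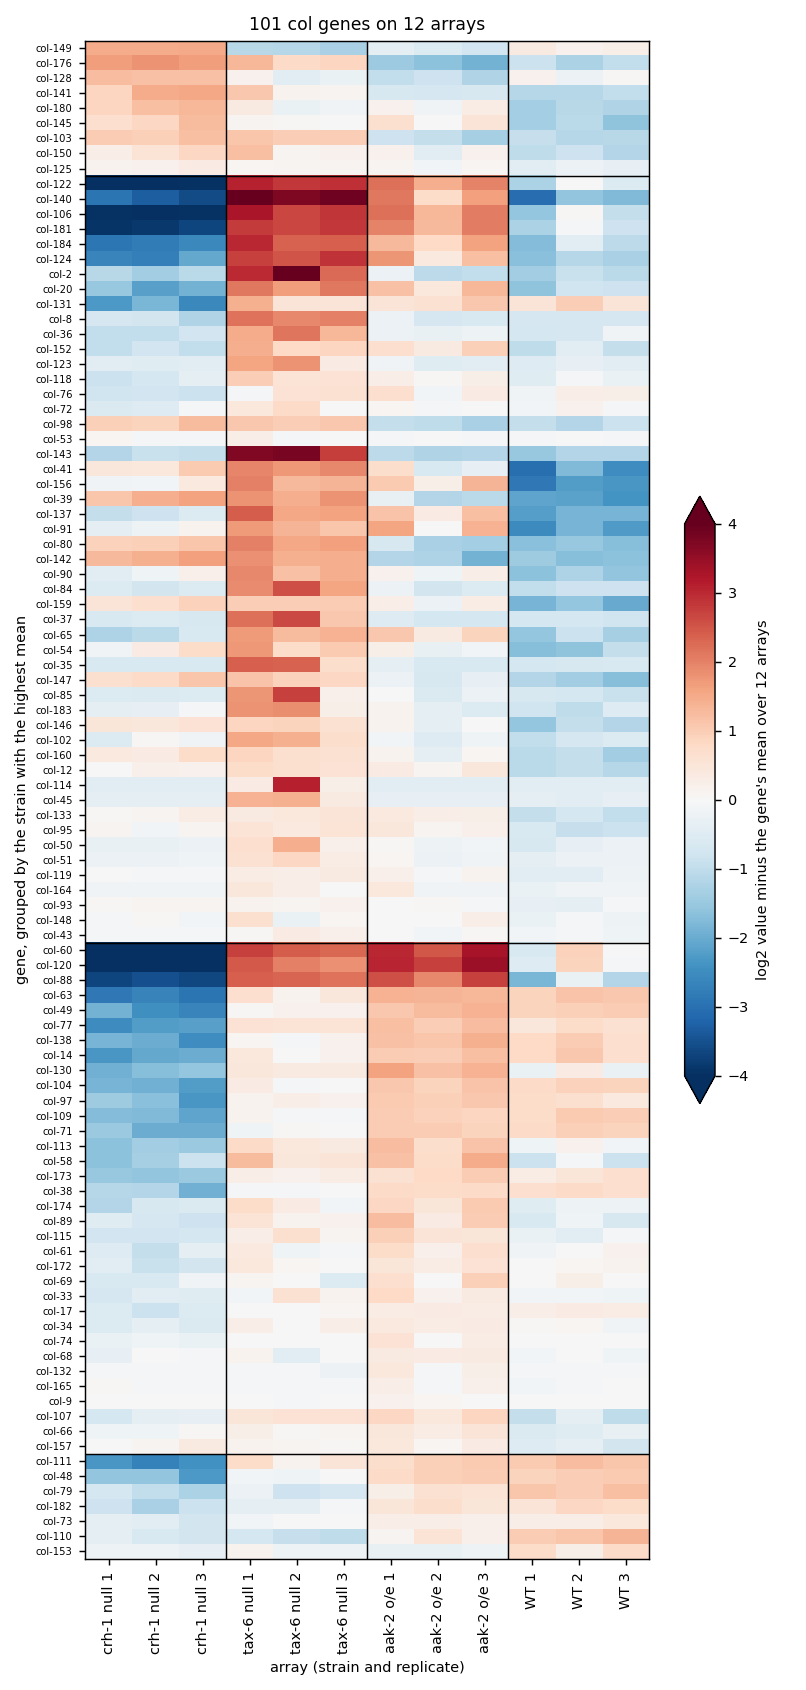
Each row is 1 col gene that passed the filter and each column 1 of the 12 arrays, and colour is the log2 value minus the gene's mean over the 12 arrays (blue lower, red higher, capped at 4 either way). Rows are grouped by the strain with the highest mean, from top to bottom crh-1 null, tax-6 null, aak-2 o/e and WT, and the darkest cells are those of col-60, col-120, col-122, col-106, col-181 and col-140, blue in crh-1 null and red in tax-6 null.

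The largest F values of the class belonged to col-63, col-77, col-122, col-181, col-60 and col-111. For col-63 the log2 values were 10.11, 10.29 and 10.05 on crh-1 null arrays, 13.63, 13.12 and 13.41 on tax-6 null arrays, 14.37, 14.32 and 14.31 on aak-2 o/e arrays and 13.87, 14.12 and 14.06 on WT arrays (F test, adjusted p = 1.70e-09). All crh-1 null arrays lay far below the other 9, and the tax-6 null arrays lay just below WT. Gene col-77 had 10.21, 10.48 and 10.55 on crh-1 null arrays, 13.30, 13.27 and 13.25 on tax-6 null arrays, 13.92, 13.69 and 13.94 on aak-2 o/e arrays and 13.16, 13.45 and 13.31 on WT arrays (adjusted p = 3.58e-09). Its crh-1 null values stood alone at the bottom, while tax-6 null and WT overlapped.

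In crh-1 null the col genes went both ways. Against WT, 28 col genes were higher (background 9.88% of all genes) and 34 were lower (background 10.7%), and 39 were not called. Over all genes 20.6% were called either way, and over the col genes 61.4%. The changes ran from -5.63 to 3.61, with a median of -0.02 over the col genes and -0.01 over all genes. At least a 2-fold difference was seen in 24 of the genes called higher and 27 of those called lower. Over all genes 9.65% were called with at least a 2-fold difference, either way. The 3 crh-1 null arrays did not overlap the 3 WT arrays in 74 col genes, where 43% of all genes did not overlap. Among the 92 genes at 4 or above on every array the counts were 28 and 31.

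The lowered set was led by col-60 and col-120. Gene col-60 had 3.35, 4.36 and 3.82 on crh-1 null arrays, 12.09, 11.79 and 11.67 on tax-6 null arrays, 12.37, 11.87 and 12.65 on aak-2 o/e arrays and 8.76, 10.28 and 9.38 on WT arrays, a change of -5.63 ± 0.35 (adjusted p = 3.23e-07). Of its 3 crh-1 null arrays 2 lay under the filter's limit of 4, so no fold is given, and the WT arrays were 4 or more units above them. Gene col-120 had 2.74, 4.31 and 3.32 on crh-1 null arrays, 11.18, 10.75 and 10.56 on tax-6 null arrays, 11.79, 11.46 and 12.14 on aak-2 o/e arrays and 8.20, 9.61 and 8.68 on WT arrays, a change of -5.37 ± 0.40 (adjusted p = 1.32e-06). As with col-60, 2 crh-1 null arrays lay under 4, no crh-1 null array overlapped another strain, and the arrays of aak-2 o/e and tax-6 null lay above all WT arrays.

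Genes col-122, col-106 and col-181 had values of the same shape. Gene col-122 had 7.30, 6.95 and 7.54 on crh-1 null arrays, 14.57, 14.32 and 14.41 on tax-6 null arrays, 13.68, 12.94 and 13.46 on aak-2 o/e arrays and 10.23, 11.48 and 10.95 on WT arrays, a change of -3.62 ± 0.28 (adjusted p = 1.84e-06). Genes col-106 and col-181 changed by -3.15 ± 0.34 (adjusted p = 2.46e-05) and -3.10 ± 0.27 (adjusted p = 3.78e-06). In all of these the order was the same: crh-1 null at the bottom, then WT, with aak-2 o/e and tax-6 null on top.

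The L4-stage collagens were lower in crh-1 null as well, without the rise in tax-6 null. In crh-1 null col-63 changed by -3.86 ± 0.13 (adjusted p = 8.39e-09), col-49 by -3.27 ± 0.16 (adjusted p = 5.13e-08) and col-38 by -2.13 ± 0.17 (adjusted p = 2.07e-06). The col-49 log2 values were 10.83, 10.28 and 10.10 on crh-1 null arrays, 12.79, 12.91 and 12.90 on tax-6 null arrays, 13.82, 13.99 and 14.12 on aak-2 o/e arrays and 13.62, 13.69 and 13.73 on WT arrays. Again no crh-1 null array came within reach of WT, and tax-6 null lay a little under WT. Gene col-111 had 7.44, 7.06 and 7.35 on crh-1 null arrays, 10.50, 9.92 and 10.30 on tax-6 null arrays, 10.47, 10.72 and 10.82 on aak-2 o/e arrays and 10.83, 11.01 and 10.87 on WT arrays, a change of -3.62 ± 0.16 in crh-1 null (adjusted p = 2.65e-08). Genes col-14, col-138, col-77, col-48, col-109 and col-71 were lower in crh-1 null by between -2.69 (col-71) and -2.97 (col-14) on the log2 scale, and col-17 and col-34, both on _x probe sets, were lower by -0.93 and -0.51.

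The raised set in crh-1 null was led by col-39 and col-41. Gene col-39 had 12.99, 13.31 and 13.49 on crh-1 null arrays, 13.65, 13.33 and 13.67 on tax-6 null arrays, 11.56, 10.68 and 10.77 on aak-2 o/e arrays and 9.74, 9.73 and 9.47 on WT arrays, a change of 3.61 ± 0.22 in crh-1 null (adjusted p = 2.39e-07), 12.2-fold higher. The crh-1 null and tax-6 null arrays overlapped at the top, aak-2 o/e lay between, and WT was lowest with no overlap. Gene col-41, reported as a target of the body-size BMP pathway in this species, had 9.67, 9.63 and 10.24 on crh-1 null arrays, 11.17, 10.95 and 11.12 on tax-6 null arrays, 9.90, 8.58 and 8.88 on aak-2 o/e arrays and 6.17, 7.43 and 6.71 on WT arrays, a change of 3.08 ± 0.35 (adjusted p = 3.71e-05). The WT arrays of col-41 spread more widely than those of col-39, yet all lay below every crh-1 null array.

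The other reported BMP targets, col-141 and col-142, are neighbours on the chromosome, and both were higher in crh-1 null. Gene col-142 had 11.16, 11.29 and 11.50 on crh-1 null arrays, 11.70, 11.29 and 11.30 on tax-6 null arrays, 8.70, 8.61 and 7.98 on aak-2 o/e arrays and 8.43, 8.14 and 8.23 on WT arrays, a change of 3.05 ± 0.19 (adjusted p = 3.03e-07), and col-141 changed by 2.37 ± 0.24 (adjusted p = 1.60e-05). The col-142 arrays fell into a high pair of strains, crh-1 null with tax-6 null, and a low pair, aak-2 o/e with WT. Also higher in crh-1 null were col-176 (change 2.74 ± 0.17), col-80 (2.63 ± 0.18), col-156 (2.53 ± 0.29) and col-159 (2.52 ± 0.17), the last on an _x probe set.

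**Figure D2:**
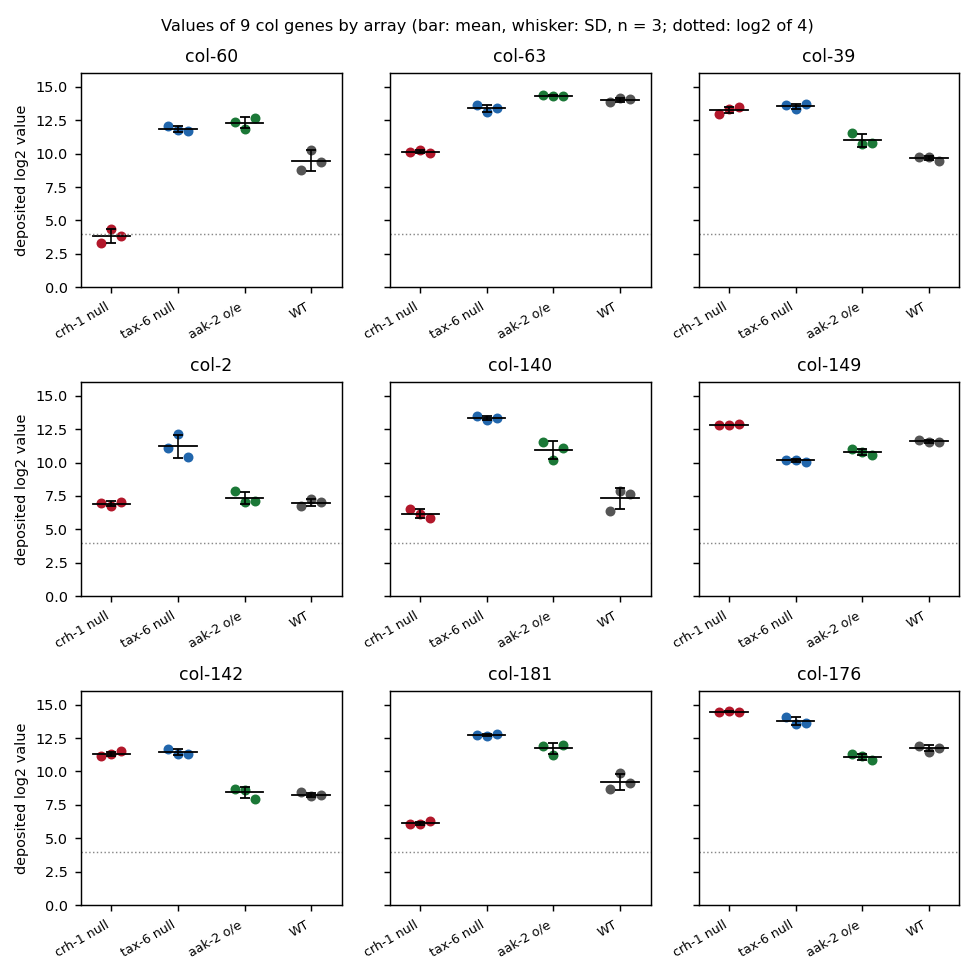
The deposited log2 value of 9 col genes is plotted on each array (points) with the strain mean (bar) and SD (whisker, n = 3), strains running from crh-1 null to WT, and the dotted line marks the filter's log2 value of 4. The crh-1 null points of col-60 sit at the dotted line, those of col-63 sit below all others, and col-2 stands out in tax-6 null only.

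In tax-6 null most of the class was higher than in WT. There were 65 col genes called higher (background 18.7%) and 16 called lower (background 26.3%), so 80.2% of the class was called where 45% of all genes were. The median change was 1.17 over the col genes and -0.09 over all genes, and at least a 2-fold difference was seen in 51 genes called higher and 4 called lower. Over all genes 17.5% were called with at least a 2-fold difference, either way. The tax-6 null and WT arrays did not overlap in 83 col genes (background 54.5%). The col counts and median include col-123 and col-143, which passed the filter through their tax-6 null arrays, so for them this is a description only. Without tax-6 null replicate 1, which stood apart over all probe sets, 60 were called higher and 16 lower, with a median of 0.93. In that setting 45.8% of all genes were called. Over the col genes alone it was replicate 2 that correlated least with the others (0.989 and 0.987). Without it the counts were again 60 and 16, with a median of 0.82, and 41.9% of all genes were called. In both settings 100 col genes were left, since col-123 no longer passed the filter. Among the 92 genes at 4 or above on every array the counts were 60 and 16.

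The largest rise in tax-6 null belonged to col-140. It had 6.52, 6.16 and 5.88 on crh-1 null arrays, 13.51, 13.18 and 13.34 on tax-6 null arrays, 11.56, 10.20 and 11.08 on aak-2 o/e arrays and 6.41, 7.87 and 7.68 on WT arrays, a change of 6.03 ± 0.38 (adjusted p = 2.48e-07), 65.3-fold higher in tax-6 null. The tax-6 null arrays were the highest, aak-2 o/e came next, and the lowest WT array lay within the crh-1 null range. Gene col-124, on an _x probe set, changed by 4.09 ± 0.30 (adjusted p = 7.55e-07) and col-137 by 3.83 ± 0.26 (adjusted p = 4.81e-07). Genes col-41, col-156 and col-39, already described for crh-1 null, changed in tax-6 null by 4.31 ± 0.35, 4.03 ± 0.29 and 3.90 ± 0.22.

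A second kind of rise was seen in tax-6 null with the other strains near WT. Gene col-2, known as a collagen of the dauer stage, the arrested alternative to the third larval stage, had 7.0, 6.73 and 7.04 on crh-1 null arrays, 11.10, 12.11 and 10.38 on tax-6 null arrays, 7.89, 7.06 and 7.13 on aak-2 o/e arrays and 6.74, 7.25 and 7.04 on WT arrays. Its change was 4.19 ± 0.36 in tax-6 null (adjusted p = 2.67e-06), 18.3-fold higher, and -0.09 ± 0.36 in crh-1 null and 0.35 ± 0.36 in aak-2 o/e, neither called. The tax-6 null arrays were all far above the rest, with replicate 2 on top and replicate 3 lowest of the 3. Gene col-143 had 3.76, 4.04 and 3.96 on crh-1 null arrays, 8.63, 8.72 and 7.70 on tax-6 null arrays, 3.87, 3.73 and 3.76 on aak-2 o/e arrays and 3.41, 3.76 and 3.76 on WT arrays. It passed the filter through its tax-6 null arrays, so these values are a description, with no test.

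Gene col-36 had 8.0, 8.0 and 8.24 on crh-1 null arrays, 10.48, 11.13 and 10.33 on tax-6 null arrays, 8.76, 8.71 and 8.77 on aak-2 o/e arrays and 8.30, 8.33 and 8.86 on WT arrays, a change of 2.15 ± 0.20 in tax-6 null (adjusted p = 5.60e-06). Replicate 2 was again the highest tax-6 null array of col-36. The spread between tax-6 null replicates was larger for several genes of this kind than elsewhere in the class: the SD over 3 arrays had a median of 0.22 over the col genes in tax-6 null and a maximum of 1.63, in col-114, a gene named after its values were seen. The col-114 arrays had 5.16, 7.94 and 5.06 on tax-6 null arrays, against 4.40, 4.40 and 4.40 on WT arrays. The tax-6 null mean of col-114 was carried mostly by replicate 2, and its 9 arrays outside tax-6 null all read 4.40.

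Other genes of this kind, named after their values were seen, were col-8, col-35, col-37, col-84 and col-85. Gene col-8 had 8.58, 8.51 and 8.04 on crh-1 null arrays, 11.42, 11.18 and 11.25 on tax-6 null arrays, 9.01, 8.58 and 8.65 on aak-2 o/e arrays and 8.58, 8.58 and 8.58 on WT arrays, with a tax-6 null change of 2.71 ± 0.16 (adjusted p = 1.11e-07). The tax-6 null arrays of col-8 kept close together, and the other 9 arrays lay between 8.04 and 9.01. In col-35, col-37, col-84 and col-85 the tax-6 null changes were 2.46 ± 0.34, 2.71 ± 0.28, 2.88 ± 0.22 and 2.32 ± 0.45. In each of these 4 genes tax-6 null replicate 3 was the lowest tax-6 null array, for example in col-85 with 7.86, 8.85 and 6.32 on tax-6 null arrays.

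The 16 genes called lower in tax-6 null changed by less. The largest falls were those of col-110 (-2.04 ± 0.15, adjusted p = 7.77e-07), col-79 (-1.67 ± 0.18, adjusted p = 1.80e-05) and col-149 (-1.43 ± 0.12, adjusted p = 2.15e-06). Gene col-110 had 9.67, 9.47 and 9.36 on crh-1 null arrays, 9.38, 9.16 and 9.07 on tax-6 null arrays, 10.18, 10.63 and 10.26 on aak-2 o/e arrays and 11.09, 11.20 and 11.42 on WT arrays. All 3 altered strains lay below every WT array in col-110, with tax-6 null and crh-1 null overlapping at the bottom. Also lower were col-48, col-182, which the gene table lists as a pseudogene, col-71, col-109 and col-49, with changes between -0.81 and -1.07.

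In aak-2 o/e the calls ran almost all one way. Against WT 45 col genes were higher (background 14.2%) and 6 lower (background 19.3%), and 50 were not called, with 33.5% of all genes called either way. The median change was 0.43 over the col genes and -0.15 over all genes. At least a 2-fold difference was seen in 34 of the genes called higher, while the largest of the 6 falls was -0.99 on the log2 scale. Over all genes 12.7% were called with at least a 2-fold difference, either way. The aak-2 o/e and WT arrays did not overlap in 66 col genes (background 52.5%). Among the 92 genes at 4 or above on every array the counts were 42 and 6.

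The largest rises in aak-2 o/e were those of col-140 (3.63 ± 0.38, adjusted p = 2.34e-05), col-88 (3.50 ± 0.31, adjusted p = 6.74e-06) and col-156 (3.35 ± 0.29, adjusted p = 5.21e-06). Gene col-88 had 6.85, 7.01 and 6.90 on crh-1 null arrays, 12.91, 12.85 and 12.71 on tax-6 null arrays, 13.10, 12.46 and 13.27 on aak-2 o/e arrays and 8.70, 10.26 and 9.36 on WT arrays. Its aak-2 o/e and tax-6 null arrays overlapped at the top, WT lay between and crh-1 null lay at the bottom. Gene col-156 had 10.94, 10.96 and 11.45 on crh-1 null arrays, 13.08, 12.37 and 12.41 on tax-6 null arrays, 12.10, 11.30 and 12.41 on aak-2 o/e arrays and 8.21, 8.81 and 8.73 on WT arrays. Here WT was the lowest strain, and aak-2 o/e overlapped tax-6 null. Genes col-91, col-120, col-137, col-60 and col-106 were higher in aak-2 o/e by 3.21, 2.97, 2.86, 2.82 and 2.68 on the log2 scale.

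The 6 genes called lower in aak-2 o/e were col-128 (-0.99 ± 0.17), col-110 (-0.88 ± 0.15), col-153 (-0.84 ± 0.15), col-149 (-0.81 ± 0.12), col-176 (-0.64 ± 0.17) and col-79 (-0.64 ± 0.18). Leaving out 1 array ended the call of col-176 for WT replicate 1 (adjusted p = 0.0558) or aak-2 o/e replicate 3 (0.0517), and that of col-79 for WT replicate 1 (0.0543), WT replicate 3 (0.0655) or aak-2 o/e replicate 1 (0.0782). The L4-stage collagens were not called in aak-2 o/e: col-63 changed by 0.32 with a 95% interval of 0.03 to 0.61, col-49 by 0.30 (-0.06 to 0.65) and col-38 by 0.05 (-0.32 to 0.42). For col-63 the adjusted p was 0.0856, and it fell to 0.0374 without tax-6 null replicate 1 and to 0.0486 without tax-6 null replicate 2.

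**Figure D3:**
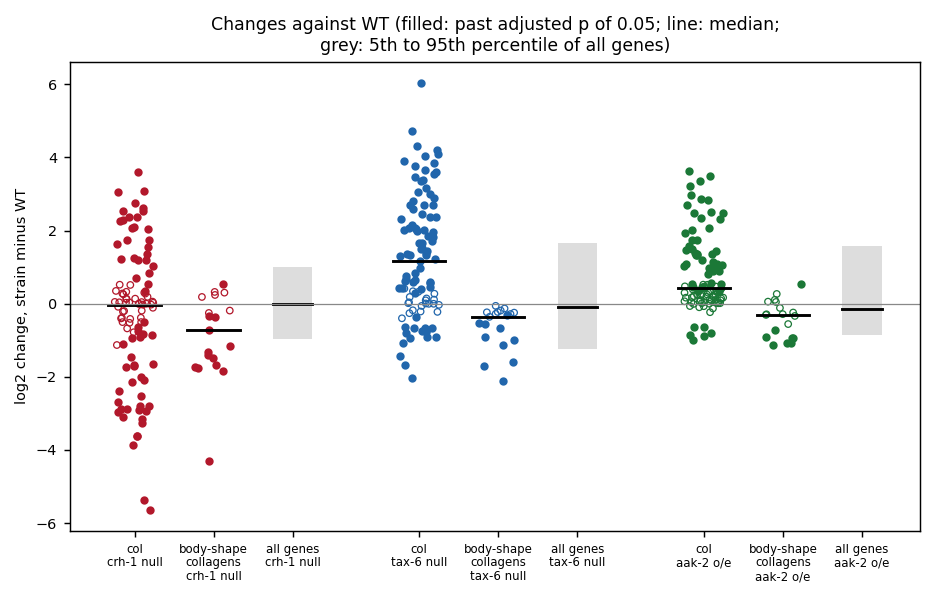
The log2 change of each altered strain against WT is plotted for the col genes that passed the filter and the 19 body-shape collagens (filled points are past the adjusted p of 0.05, open points are not, black lines are medians), with a grey bar from the 5th to the 95th percentile of all genes. The col genes spread from -5.63 to 3.61 in crh-1 null, lie mostly above 0 in tax-6 null and also in aak-2 o/e, and the medians of the body-shape collagens lie below 0 in all 3 strains.

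The comparisons with WT share the WT arrays, so their values are set side by side for single genes. Gene col-122 changed by -3.62 for crh-1 null, by 3.55 for tax-6 null and by 2.47 for aak-2 o/e, all called. Gene col-106 had changes of -3.15, 3.75 and 2.68 in the same order of strains, and col-181 had -3.10, 3.47 and 2.49, again all called, so that crh-1 null moved opposite to the other strains. Genes col-60 and col-120 followed the same signs.

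Gene col-176 was called higher in tax-6 null but lower in aak-2 o/e. It had 14.45, 14.54 and 14.43 on crh-1 null arrays, 14.09, 13.54 and 13.62 on tax-6 null arrays, 11.29, 11.12 and 10.86 on aak-2 o/e arrays and 11.92, 11.49 and 11.79 on WT arrays, a change of 2.02 ± 0.17 in tax-6 null (adjusted p = 2.11e-06) and -0.64 ± 0.17 in aak-2 o/e (adjusted p = 0.0122). Each strain's arrays formed their own band, crh-1 null on top and aak-2 o/e at the bottom. Gene col-149 had 12.81, 12.81 and 12.84 on crh-1 null arrays, 10.22, 10.19 and 10.05 on tax-6 null arrays, 10.98, 10.80 and 10.55 on aak-2 o/e arrays and 11.70, 11.50 and 11.56 on WT arrays. It was higher in crh-1 null by 1.23 ± 0.12 (adjusted p = 9.46e-06) and lower in both other strains, and its 4 bands of arrays did not overlap. Gene col-128 changed by 1.21 ± 0.17 in crh-1 null (adjusted p = 0.000191), by -0.18 ± 0.17 in tax-6 null, which was not called, and by -0.99 ± 0.17 in aak-2 o/e (adjusted p = 0.000719).

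Genes in which WT was the lowest strain include several read on _x probe sets. Gene col-159 had 14.68, 14.82 and 15.08 on crh-1 null arrays, 15.13, 15.12 and 15.17 on tax-6 null arrays, 14.42, 13.90 and 14.45 on aak-2 o/e arrays and 12.28, 12.60 and 12.12 on WT arrays. Its WT arrays lay below all others, and the altered strains differed from each other by less than from WT. Gene col-145 changed by 2.27 ± 0.20 for crh-1 null, 1.39 ± 0.20 for tax-6 null and 1.73 ± 0.20 for aak-2 o/e, and col-180, without a suffix, by 2.36 ± 0.18, 1.22 ± 0.18 and 1.33 ± 0.18 in the same strains, all called. Gene col-91 had 9.05, 9.24 and 9.58 on crh-1 null arrays, 11.14, 10.79 and 10.53 on tax-6 null arrays, 11.03, 9.41 and 10.84 on aak-2 o/e arrays and 6.90, 7.57 and 7.17 on WT arrays, and aak-2 o/e replicate 2 was the lowest of its strain by more than 1 unit. Gene col-137 had 6.16, 6.28 and 6.58 on crh-1 null arrays, 9.55, 8.66 and 8.72 on tax-6 null arrays, 8.25, 7.46 and 8.30 on aak-2 o/e arrays and 4.92, 5.26 and 5.25 on WT arrays, with tax-6 null on top and crh-1 null closest to WT.

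A further pattern, described after the values were seen, set crh-1 null with tax-6 null apart from aak-2 o/e with WT. Besides col-142 it was found in col-98 and col-103. Gene col-103 had 13.20, 13.12 and 13.38 on crh-1 null arrays, 13.30, 13.17 and 13.15 on tax-6 null arrays, 11.35, 11.23 and 10.87 on aak-2 o/e arrays and 11.27, 11.05 and 11.07 on WT arrays. The crh-1 null and tax-6 null arrays overlapped about 2 units above the overlapping aak-2 o/e and WT arrays. Gene col-98 changed by 2.04 ± 0.14 in crh-1 null (adjusted p = 4.93e-07), 2.05 ± 0.14 in tax-6 null (adjusted p = 3.31e-07) and -0.10 ± 0.14 in aak-2 o/e, which was not called.

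Direct contrasts between the altered strains do not use the WT arrays in the difference. Between tax-6 null and crh-1 null, 68 col genes were higher in tax-6 null (background 16.6%) and 6 lower (background 21.4%), together 73.3% of the class where 37.9% of all genes were called, with a median of 1.10 over the col genes and -0.08 over all genes. Arrays of the 2 strains did not overlap in 80 col genes (background 49.9%). The genes higher in tax-6 null include col-123 and col-143, which passed the filter through their tax-6 null arrays. The largest difference was that of col-60, with 12.09, 11.79 and 11.67 on tax-6 null arrays, against 3.35, 4.36 and 3.82 on crh-1 null arrays and a difference of 8.01 ± 0.35 (adjusted p = 1.05e-08). It was followed by col-120 (7.37 ± 0.40), col-122 (7.17 ± 0.28) and col-140 (7.16 ± 0.38). The largest differences downward were those of col-149 (-2.66 ± 0.12), col-128 (-1.39 ± 0.17), col-180 (-1.14 ± 0.18) and col-145 (-0.88 ± 0.20).

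For tax-6 null against aak-2 o/e the class was more evenly divided. There were 41 genes higher in tax-6 null (background 27.6%) and 24 lower (background 22.4%), together 64.4% of the class where 50.1% of all genes were called, and the median difference was 0.17 over the col genes and 0.05 over all genes. In 67 col genes the arrays of these strains did not overlap (background 55.7%). Here too the genes higher in tax-6 null include col-123 and col-143, which passed through their tax-6 null arrays. Higher in tax-6 null, leaving aside col-143, were col-2 (3.84 ± 0.36, adjusted p = 2.67e-06), col-142 (3.00 ± 0.19) and col-80 (2.84 ± 0.18). Lower in tax-6 null were col-138 (-1.17 ± 0.16, adjusted p = 8.02e-05), col-110 (-1.16 ± 0.15), col-49 (-1.11 ± 0.16) and col-79 (-1.03 ± 0.18). The L4-stage genes col-63 and col-38 were also lower, by -0.95 and -0.80 on the log2 scale.

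Between crh-1 null and aak-2 o/e, 15 col genes were higher in crh-1 null (background 27.4%) and 52 lower (background 19%), together 66.3% of the class where 46.4% of all genes were called, with a median of -0.52 over the col genes and 0.15 over all genes. The arrays did not overlap in 72 col genes (background 60.1%). The upward differences were led by col-176, with 14.45, 14.54 and 14.43 on crh-1 null arrays, against 11.29, 11.12 and 10.86 on aak-2 o/e arrays and a difference of 3.38 ± 0.17 (adjusted p = 2.77e-08). Next were col-142 (2.88 ± 0.19), col-39 (2.26 ± 0.22) and col-128 (2.20 ± 0.17). Downward, col-60 differed by -8.45 ± 0.35 (adjusted p = 1.15e-08), the largest difference of the class, and col-120, col-122 and col-88 by -8.34, -6.10 and -6.02.

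**Figure D4:**
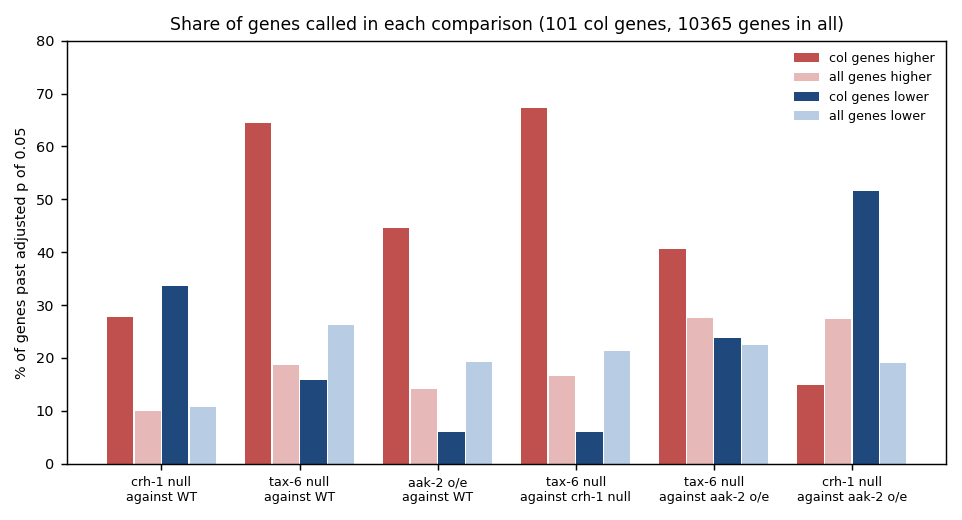
Bars give, for each of the 6 comparisons, the percentage of the col genes that passed the filter (dark) and of all 10365 genes (light) called higher (red) or lower (blue) in the strain named first. The dark red bars for tax-6 null against WT and against crh-1 null are the tallest, at 64.4% and 67.3%, where the light bars beside them stand at 18.7% and 16.6%.

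Col genes that sit next to each other among protein-coding genes did not always move together. These pairs were taken by position in the WBcel235 gene table, not by value. Gene col-39 lies between col-79 and col-80. Against WT col-79 changed by -2.08 for crh-1 null, -1.67 for tax-6 null and -0.64 for aak-2 o/e, while col-39 changed by 3.61, 3.90 and 1.36 in the same strains, opposite in sign in all 3 and called each time. On the other side col-80 moved as col-39 did, by 2.63, 3.37 and 0.53. Its aak-2 o/e call was lost under several alternatives, with an adjusted p of up to 0.153.

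The pair col-149 and col-150 had opposite calls in 2 strains. Gene col-150 had 9.10, 9.37 and 9.65 on crh-1 null arrays, 10.04, 8.95 and 8.99 on tax-6 null arrays, 8.99, 8.39 and 9.01 on aak-2 o/e arrays and 7.82, 8.0 and 7.65 on WT arrays, a change of 1.5 ± 0.28 in tax-6 null (adjusted p = 0.000933) where col-149 had -1.43, and of 0.97 in aak-2 o/e where col-149 had -0.81. All WT arrays of col-150 lay below those of the altered strains. The pair col-20 and col-73 differed in tax-6 null, with 3.05 and -0.36. Other pairs had no opposite calls: col-141 and col-142, col-159 and col-160, col-50 and col-51, col-17 and col-20, and col-183 and col-184.

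Probe sets matter in this family, because near-identical collagens share stretches of sequence. Of the probe sets used, 58 had no suffix, 22 carried _s and 21 carried _x, marks of probes that can bind transcripts of related genes, and for these the single gene is uncertain. The 58 without a suffix had 15 genes higher and 18 lower in crh-1 null, 35 and 9 in tax-6 null, and 22 and 4 in aak-2 o/e. Of the _s sets, 2 were higher and 12 lower in crh-1 null, 12 and 6 in tax-6 null, and 7 and 2 in aak-2 o/e. Of the _x sets, the counts were 11 and 4, 18 and 1, and 16 and 0. All genes had 9.88% higher and 10.7% lower in crh-1 null, 18.7% and 26.3% in tax-6 null, and 14.2% and 19.3% in aak-2 o/e. The median aak-2 o/e change was 1.02 over the _x sets, 0.42 without a suffix and 0.22 over the _s sets, so the rise was largest on _x sets. Of the col genes named, col-2, col-36, col-38, col-41, col-63, col-71, col-106, col-110, col-111, col-114, col-120, col-128 and col-140 rest on _s sets, as do col-8, col-20, col-35 and col-131, and col-12, col-17, col-34, col-43, col-73, col-119, col-124, col-145, col-159 and col-160 on _x sets.

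A second passing probe set existed for 8 genes of the class, and no gene had calls of opposite sign on its sets in the comparisons with WT. The sizes differed most for col-119, whose _x set gave a tax-6 null change of 0.66 and whose _s set gave 5.0. For col-131 the crh-1 null change was -2.91 on its _s set, at least 5.44-fold lower since all crh-1 null arrays lay below 4, and -1.76 on the set without a suffix. Another 17 probe sets name several col genes and were not used. One of them, annotated to col-12 and col-13, had strain means of 13.9 for crh-1 null, 14.5 for tax-6 null, 13.9 for aak-2 o/e and 12.3 for WT, and col-12 on its own _x set changed by 1.19, 1.72 and 1.36, all called higher. A gene that did not pass on its own set may still be read by a shared one. The own sets of col-127 and col-126 did not exceed 2.13 and 2.11 on any array. A set annotated to both genes had means of 10.5 for crh-1 null, 10.3 for tax-6 null, 9.88 for aak-2 o/e and 6.98 for WT. Which of these genes it read cannot be told.

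The body-shape collagens, cuticle collagens whose mutants are dumpy, rolling, blistered or long, were called lower more often than higher. Over all genes, 9.88% were called higher and 10.7% lower for crh-1 null (median -0.01), 18.7% and 26.3% for tax-6 null (median -0.09), and 14.2% and 19.3% for aak-2 o/e (median -0.15). Of 19 body-shape collagens tested, 1 was higher and 12 lower in crh-1 null (median -0.73), 0 and 10 in tax-6 null (median -0.36), and 1 and 7 in aak-2 o/e (median -0.31) by limma, and at an unadjusted p under 0.05 the count higher in tax-6 null was also 0. The largest fall was that of rol-1 in crh-1 null, with 8.35, 7.84 and 7.63 on crh-1 null arrays, against 12.07, 12.40 and 12.26 on WT arrays and a change of -4.30 ± 0.18 (adjusted p = 2.20e-08). Its groups lay far apart. The basement membrane collagen genes emb-9 and let-2, for type IV chains, were not called in any strain against WT by limma, and 1 of their comparisons, in aak-2 o/e, had an unadjusted p under 0.05.

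Genes that modify, cut and crosslink collagens had more calls lower than higher as well. Of 16 tested, 2 were higher and 7 lower in crh-1 null (10.7% of all genes lower, list median -0.24), 2 and 9 in tax-6 null (26.3%, median -0.48), and 0 and 5 in aak-2 o/e, which for so few genes is not far from the 19.3% of all genes (median -0.14, limma, with 1 higher in aak-2 o/e at an unadjusted p under 0.05). Called higher over all genes were 9.88%, 18.7% and 14.2% in the same order of strains. The prolyl 4-hydroxylase subunits dpy-18 and phy-2, which hydroxylate nascent collagen, changed by -1.30 ± 0.11 (adjusted p = 1.85e-06) and -1.39 ± 0.18 (adjusted p = 6.12e-05) in tax-6 null. In aak-2 o/e the procollagen protease dpy-31 changed by -1.19 ± 0.14 (adjusted p = 4.07e-05). Among the members called higher was mlt-7, a peroxidase of cuticle crosslinking, with 1.65 ± 0.14 in tax-6 null (adjusted p = 2.82e-06).

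Regulators of the cuticle cycle and of stage identity changed in both directions. Of 12 tested, 5 were higher and 2 lower in crh-1 null (all genes 9.88% and 10.7%), 6 and 5 in tax-6 null (18.7% and 26.3%), and 1 and 5 in aak-2 o/e (14.2% and 19.3%). The 2 lower in crh-1 null and the 1 higher in aak-2 o/e are near those shares. The list medians were 0.09, 0.09 and -0.26. The nuclear receptor nhr-23, which drives moulting, had 9.35, 9.41 and 9.41 on crh-1 null arrays, 8.28, 8.49 and 8.64 on tax-6 null arrays, 7.73, 7.75 and 7.43 on aak-2 o/e arrays and 8.19, 7.91 and 8.14 on WT arrays, and was higher in crh-1 null by 1.31 ± 0.13 (adjusted p = 1.19e-05). Its crh-1 null arrays were the highest and its aak-2 o/e arrays the lowest, with no overlap. The moulting gene bed-3 changed by -3.42 ± 0.22 in crh-1 null (adjusted p = 3.19e-07). In BMP body-size signalling, 3 of 10 genes were higher and 1 lower in crh-1 null (all genes 9.88% and 10.7%, list median 0.17), 5 and 1 in tax-6 null (18.7% and 26.3%, median 0.45), and 0 and 2 in aak-2 o/e (14.2% and 19.3%, median -0.32), where 0 were higher at an unadjusted p under 0.05 too. The receptor gene sma-6 changed by 1.19 ± 0.14 in tax-6 null (adjusted p = 2.85e-05).

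Genes of the moulting cycle and apical matrix were lower more often than higher, with 13 of 19 lower and 2 higher in crh-1 null (10.7% of all genes lower, list median -0.78), 15 and 1 in tax-6 null (26.3%, median -0.86), and 10 and 0 in aak-2 o/e (19.3%, median -0.46), where 0 were higher at an unadjusted p under 0.05 too. Called higher over all genes were 9.88%, 18.7% and 14.2% in the same order of strains. The 7 markers tested of the epidermis, the tissue that makes the cuticle, were lower in 2 cases for crh-1 null, 4 for tax-6 null and 4 for aak-2 o/e, beside 10.7%, 26.3% and 19.3% of all genes. None was called higher by limma, and 1 was higher in tax-6 null at an unadjusted p under 0.05. Their list mean ran from 8.44 to 8.67 over the arrays of crh-1 null, 8.17 to 8.46 for tax-6 null, 8.18 to 8.30 for aak-2 o/e and 8.71 to 8.84 for WT, and all 7 had values of 4 or more on at least 1 array of each strain. The part of epidermal RNA in the col values was not tested.

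Markers of other tissues were called in some strains too, and the shares of all genes stand beside them. Of 8 oocyte markers, 5 were lower in crh-1 null (all genes 10.7%), 7 higher in tax-6 null (18.7%) and 6 higher in aak-2 o/e (14.2%), and their list mean ran from 7.34 to 7.42 in crh-1 null, 8.77 to 8.96 for tax-6 null, 8.52 to 8.89 for aak-2 o/e and 7.77 to 8.03 for WT. Of 7 sperm markers, 6 were lower in tax-6 null (26.3%) and 6 higher in aak-2 o/e (14.2%), with list means of 7.17 to 7.5 for crh-1 null, 6.29 to 6.80 for tax-6 null, 8.88 to 9.08 for aak-2 o/e and 7.49 to 7.70 for WT. Of 7 neuron markers, 4 were higher in crh-1 null (9.88%), 3 higher in tax-6 null (18.7%) and 4 lower in aak-2 o/e (19.3%). Calls among the 8 intestine, 8 body wall muscle and 8 germline markers numbered 3, 0 and 0 for crh-1 null, 6, 2 and 2 for tax-6 null and 4, 2 and 3 for aak-2 o/e, in that order of tissues. All genes were called either way at 20.6%, 45% and 33.5% in these strains, and the muscle and germline counts were near or under these shares. At an unadjusted p under 0.05 the crh-1 null counts of 0 were 1 for muscle and 0 for germline. The part of these tissues in the col values was not tested.

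The 6 col genes set aside by name were read on the same arrays. Of these, 1 was higher and 1 lower in crh-1 null (all genes 9.88% and 10.7%). In tax-6 null 6 were higher (all genes 18.7%), and in aak-2 o/e 4 were higher (all genes 14.2%). The medians were -0.02, 6.47 and 4.30 in the same order of strains. Gene col-158 reached 4 on only the 3 tax-6 null arrays, so it entered through the strain in which it was high. Its part in the tax-6 null count and median is a description only. The adult collagen col-19 had 4.34, 4.48 and 3.86 on crh-1 null arrays, 12.31, 11.98 and 12.30 on tax-6 null arrays, 10.31, 9.22 and 10.27 on aak-2 o/e arrays and 4.10, 5.25 and 4.34 on WT arrays. Its tax-6 null arrays were the highest, aak-2 o/e came next, and crh-1 null and WT overlapped near the filter's limit.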

How the data were processed

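The deposited table holds log2 signals of 22625 probe sets on 12 Affymetrix arrays. Per the submitters' processing notes the authors used GCOS 1.4 and GCRMA, whose settings were not given in the sources used here. This method corrects background by probe base content, and where all 3 arrays of a strain were under 4, a fold is given as a lower bound. A col gene was kept at 4 or more on 3 or more arrays, which left 101 of 122. Per the labels' protocols, all RNA was extracted together, 12 hours before the arrays, and a strain's replicates were prepared on separate days. Names are those of the platform annotation, checked against the WBcel235 gene table, which held all 101 genes. Its coordinates are not printed, because the annotation names no build. Sequences of the genes are not analysed here.

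Contrasts and the moderated F test were fitted by lmFit and eBayes of limma 3.58.1 under R 4.3.3 (1 mean per strain, two-sided, 8 residual and 3.63 prior degrees of freedom). A trial of the procedure on simulated data had far fewer changed probe sets than were called here, so no error rate is taken from it. The number of arrays, 3 per strain, limits the precision. Col genes were named by a rule: called genes whose arrays did not overlap, the 8 largest each way per strain against WT, the 4 largest each way per direct contrast, the 3 largest with opposite calls per pair of strains, the 6 largest F values and a fixed list of 20, of which col-6, col-7, col-10, col-13, col-40 and col-62 had no passing probe set of their own. Genes named beyond it were chosen by position, by the filter, by the F test or by a second probe set, or after their values were seen where the text says so. The col genes, gene lists and tests were chosen with earlier results of these data known. Alternatives tried were other normalizations between arrays, other filters, a replicate block, array weights, a variance trend, other choices of probe set, fits of 2 strains only and leaving out each array.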

Additional observations from a re-analysis of the deposited data

How the results depend on the processing

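Under the alternatives run, the median change of the col genes kept its sign in 5 of the 6 contrasts, and that of crh-1 null against WT lay between -0.14 and 0. With only probe sets that carry no _s or _x suffix, 60 genes remained, and the counts are out of 60. Against WT, 34 were called in crh-1 null (15 higher, 19 lower), 44 in tax-6 null (35 higher, 9 lower) and 26 in aak-2 o/e (22 higher). In this setting 21.9%, 45.2% and 34.2% of all genes were called. For tax-6 null against crh-1 null 44 were called (40 higher, all genes 37.9%). For tax-6 null against aak-2 o/e 35 were called (23 higher, 12 lower, all genes 51.3%). For crh-1 null against aak-2 o/e 40 were called (9 higher, 31 lower, all genes 47.8%). The F test called 53, and for this test the share of all genes was taken in the main fit only. Leaving out each array in turn gave 59 to 64 called in crh-1 null against WT, 73 to 81 for tax-6 null, 43 to 56 for aak-2 o/e, and 90 to 94 in the F test. Over all genes the share called against WT then ran from 14.7% to 25.6% for crh-1 null, 38.7% to 46.1% for tax-6 null and 26.2% to 42.8% for aak-2 o/e. The median change in tax-6 null against WT ran from 0.82, without tax-6 null replicate 2, to 1.21; the cause was not tested. Whether same-numbered replicates of different strains share a preparation day is not given by the labels. Correlations of their deviations from strain means lay between -0.249 and 0.138. With the replicate number as a block, 61 col genes were called against WT for crh-1 null, 77 for tax-6 null and 49 for aak-2 o/e (all genes 18.6%, 42.4% and 30.7%), and 93 by the F test. Among the named genes the block ended 1 call, that of col-34 in aak-2 o/e (adjusted p = 0.0583, limma). Of 150 results for named genes, 11 changed side of the threshold under at least 1 alternative, 5 by losing a call and 6 by gaining one, and no result for a named gene reversed while called. Calls were lost by col-124 in crh-1 null (adjusted p up to 0.0848) and by col-176, col-79, col-80 and col-34 in aak-2 o/e (up to 0.153, in col-80). The common floor limits what can be said of genes near a log2 value of 4. Values above 4 that repeat between arrays, as in col-8 and col-35, limit what can be said of changes from them.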
